A study of Homo sapiens with 12 samples.

Results

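The genes described here encode the machinery of MHC class I antigen presentation: the heavy chains HLA-B, HLA-C, HLA-E and HLA-F, their light chain B2M, the peptide transporter subunits TAP1 and TAP2, and the inducible proteasome subunits PSMB8 and PSMB9. They were picked by symbol, each mapped from its Ensembl identifier, and make up 9 of the 58735 genes counted. All of them were present in the count table, and 8 passed the filter on low counts and were tested. HLA-F was too low for a test and is given as counts.

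Cells of the FDX2-iKO ES2 derivative gave all libraries. ES2 is a human ovarian cancer line, and here a genome-editing-resistant, HA-tagged FDX2 under a TetON promoter is expressed while doxycycline (Doxy) is present, and the endogenous FDX2 gene is knocked out. FDX2 is a mitochondrial ferredoxin needed to assemble iron-sulfur clusters, and Doxy withdrawal leads to its loss. Both Doxy-treated and Doxy-free cells carry the transgene and the knockout. In the 20% O2 + Doxy and 20% O2 wo Doxy groups, cells were cultured for 6 days at 20% O2. In the 3% O2 + Doxy and 3% O2 wo Doxy groups, a preculture of 4 days at 20% O2 was followed by 3 days at 3% O2. Each of the 4 conditions has 3 libraries, 12 in all, with 24958386 to 34313637 counted reads per library.

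Cells lacking FDX2 also lack Doxy, so loss of the protein and removal of the drug cannot be told apart. The 3% O2 cells were also in culture longer, so oxygen and time cannot be told apart. The labels do not say which knockout clone was used. FDX2 itself had 2 to 13 counts per library, in ranges that overlapped between all conditions (2 to 6 at 20% O2 + Doxy, 4 to 13 at 20% O2 wo Doxy, 2 to 12 at 3% O2 + Doxy, 5 to 7 at 3% O2 wo Doxy), and its counts therefore check no label.

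Nucleated cells display peptides of their own proteins on MHC class I. Proteasomes cut the proteins, the TAP1-TAP2 transporter carries the peptides into the endoplasmic reticulum, and there they are loaded onto a heavy chain paired with B2M. CD8 T cells read the complex, and natural killer cells sense its absence. Interferons raise this machinery as a set, partly through the transactivator NLRC5, and tumours often lower it.

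The gene starts of the members lie on chromosome 6 within the MHC, except that of B2M on chromosome 15. The following sequences lie directly upstream of the RefSeq start sites (GRCh38.p14) of 4 members whose levels the results turn on, with capitals marking matches to the motifs searched and transcribed leader bases left off. They are shown because the HLA-B and HLA-C sequences resemble each other and because B2M and TAP1 lie in other contexts. HLA-B was called on FDX2 loss, whereas HLA-C was not called by edgeR in all 12 libraries without a correction for GC content. With that correction HLA-C was called higher at both oxygen levels, and HLA-B and HLA-C were not tested against each other.
HLA-B, chr6:31357189-31357429, minus strand: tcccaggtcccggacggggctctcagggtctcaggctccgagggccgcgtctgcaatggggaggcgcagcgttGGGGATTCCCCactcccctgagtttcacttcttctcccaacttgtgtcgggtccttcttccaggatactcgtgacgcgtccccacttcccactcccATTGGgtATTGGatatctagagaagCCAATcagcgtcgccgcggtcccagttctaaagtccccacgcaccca
HLA-C, chr6:31272106-31272342, minus strand: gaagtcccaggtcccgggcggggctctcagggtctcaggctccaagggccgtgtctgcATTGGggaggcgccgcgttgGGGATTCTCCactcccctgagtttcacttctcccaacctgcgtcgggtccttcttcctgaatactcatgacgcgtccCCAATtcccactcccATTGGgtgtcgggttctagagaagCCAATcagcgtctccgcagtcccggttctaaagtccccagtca
B2M, chr15:44711267-44711486, plus strand: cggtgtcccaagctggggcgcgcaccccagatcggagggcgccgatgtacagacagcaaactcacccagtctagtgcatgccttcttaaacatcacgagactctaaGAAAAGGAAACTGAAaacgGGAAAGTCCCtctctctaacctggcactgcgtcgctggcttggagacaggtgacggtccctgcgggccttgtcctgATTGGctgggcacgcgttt
TAP1, chr6:32853705-32853816, minus strand: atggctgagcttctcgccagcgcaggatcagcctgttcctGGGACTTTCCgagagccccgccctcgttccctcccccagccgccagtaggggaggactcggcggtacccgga

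In the HLA-B sequence the longest capital run, at positions -177 to -167 from the start site, holds overlapping matches to the NF-kB motif, and the shorter runs match CCAAT, which reads as ATTGG on the other strand. HLA-C holds an NF-kB match at -172 to -163 and 4 CCAAT matches. B2M holds overlapping matches to the interferon-stimulated response element (ISRE, searched as GAAANNGAA) from -144 to -130, followed by an NF-kB match at -125 to -116 and a CCAAT match at -49 to -45. TAP1 holds an NF-kB match at -72 to -63, and ISRE matches at -133 to -119 and a CCAAT match at -249 to -245 that overlap transcribed bases and are not printed.

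Such matches are a description of letters and not of binding. A promoter without a match to these fixed letters may still hold a variant of the element, and no other elements were searched. All motifs were searched on both strands in the 250 bases before each of 35116 RefSeq starts. Of these promoters, 9.96% held an NF-kB match, 6.88% an ISRE match, 32.0% CCAAT, 6.57% the interferon-gamma activation site TTCNNNGAA (GAS), 18.5% the hypoxia-response core ACGTG (HRE), 1.65% the cAMP-response element TGACGTCA and 3.14% the amino acid response core TGATGNAA. RefSeq starts were found for 8 of the 9 members (10 promoters, HLA-E without an entry). Other matches were ISRE and CCAAT at HLA-F, ISRE at TAP2, GAS at PSMB8 and at the second TAP1 start, and CCAAT and HRE at PSMB9. No member promoter held the cAMP or amino acid response letters in this window.

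Levels are given as CPM, counts per 1000000 counted reads, scaled between libraries by the TMM method. A fold change is edgeR's estimate. Its standard error (SE) was derived as the absolute log2 fold change divided by the square root of edgeR's F statistic. P-values are from edgeR's quasi-likelihood test, Benjamini-Hochberg adjusted over all 16891 tested genes, with 0.05 as the threshold for calling a change. These are bulk cultures, in which fewer cells that express a gene and less RNA per cell cannot be told apart. Strand use and the handling of reads with several alignments are not given for the counting, and heavy chain genes are polymorphic and alike in sequence, so their reads may be split or lost. By GENCODE 29, HLA-B and HLA-C share 35 exonic bases, 32.3% of the TAP2 exonic bases are shared with the annotated gene AL669918.1, 20.6% of those of PSMB8 face antisense genes, and 17.8% of those of HLA-B face AL671883.2.

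In the 20% O2 + Doxy replicates 1 and 2 a read file was lost by the submitters according to the design text, although the counts of both are deposited. In addition, the trend of expression against the GC content of transcripts set 3 libraries apart: per 10 GC points, log2 CPM rose by 0.17 in 20% O2 + Doxy replicate 1 (-0.06 and -0.13 in replicates 2 and 3), by 0.19 in 3% O2 + Doxy replicate 3 (-0.07 and -0.05 in replicates 1 and 2) and by 0.19 in 3% O2 wo Doxy replicate 2 (0.02 and 0.06 in replicates 1 and 3). HLA-E (64.7% GC), HLA-C (61.4%) and HLA-B (59.5%) are GC-rich and B2M (40.5%) is GC-poor, so results of members that change without these 3 libraries are given both ways. Single genes outside the members are given from the fit to all 12 libraries only, so their calls may depend on these 3. Leukocyte markers summed to 0.927 to 2.78 CPM in any library, and NKG7 and MS4A1 were at 0 throughout. Of 7 markers chosen for an epithelial carcinoma line, KRT8, KRT18, PAX8 and VIM were at 1 CPM or more in all conditions, while KRT19, CDH1 and EPCAM were near or at 0.

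At 20% O2, most of the class I machinery was higher without FDX2. HLA-B rose 2.13-fold, and B2M, TAP1, PSMB8, PSMB9 and HLA-E also rose, so that 6 of the 8 tested members were called higher and none lower. Over all tested genes, 17.6% were called higher and 17.7% lower. The median log2 fold change of the members was 0.48, against 0.009 for all tested genes. At 3% O2, 4 of 8 members rose (HLA-B, B2M, TAP1 and PSMB8) and none fell, where 4.2% of all genes were called higher and 3.11% lower. There the median was 0.51 for the members and 0.041 for all genes. Fitted to the 6 libraries of that comparison alone, 2 members (HLA-B and TAP1) were called.

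**Figure D1:**
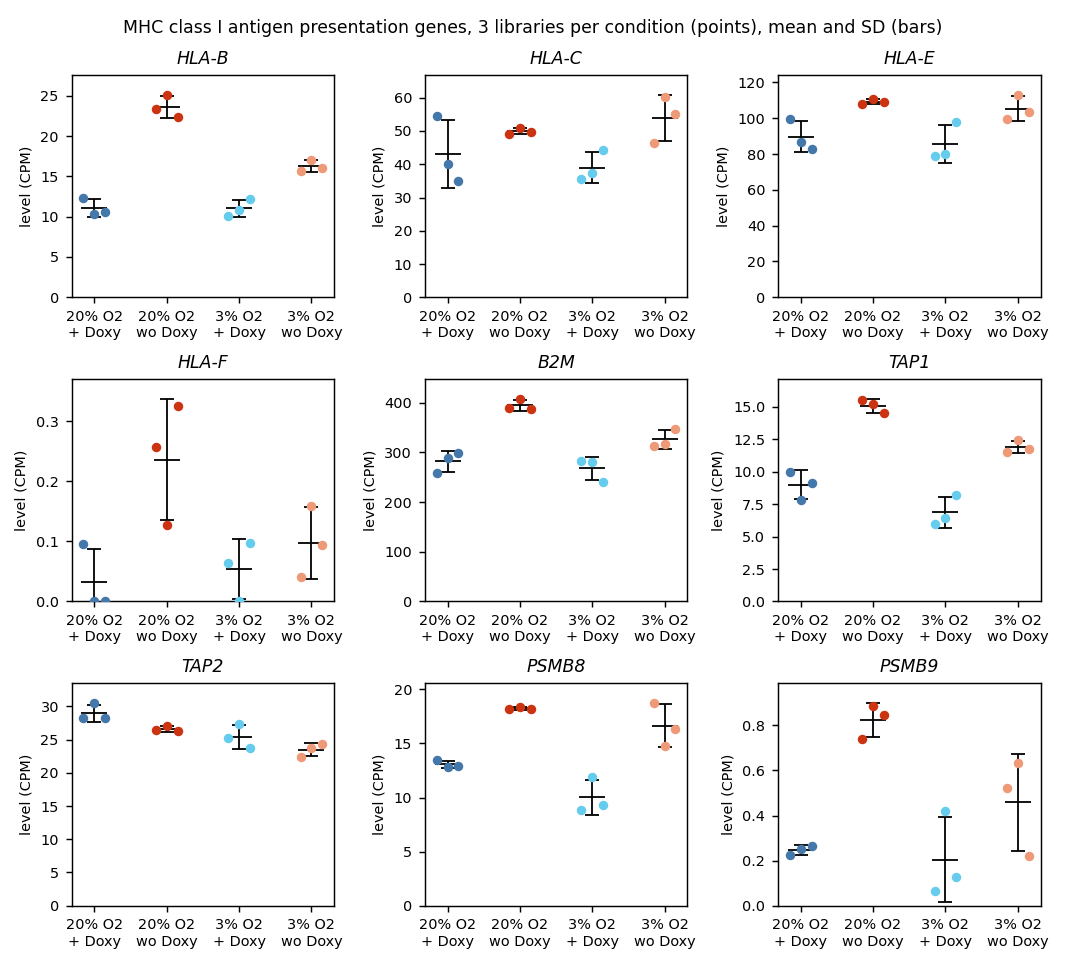
Levels of the 9 members in CPM (vertical axes from 0, a scale for each gene) in the 4 conditions, with a point for each library and bars for the mean and SD of 3. HLA-B, B2M and TAP1 lie higher wo Doxy than + Doxy at both oxygen levels without overlap, whereas TAP2 does not.

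HLA-B, a classical heavy chain that presents peptides to CD8 T cells, had the lowest adjusted p of the members at 20% O2. Its levels at 20% O2 were 12.3, 10.3 and 10.6 CPM with Doxy and 23.4, 25.1 and 22.4 CPM without. At 3% O2 they were 10.1, 10.8 and 12.2 CPM with Doxy and 15.7, 17.1 and 16.1 CPM without. The libraries thus fell into 3 levels: both Doxy groups low and overlapping, 3% O2 wo Doxy between, and 20% O2 wo Doxy highest, with no overlap between these levels.

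By the test, HLA-B rose by 1.09 on the log2 scale at 20% O2 (SE 0.0891, adjusted p = 5.93e-06), which is 2.13-fold. At 3% O2 it rose by 0.56 (SE 0.0899, adjusted p = 0.00448), or 1.48-fold. The difference between both responses was itself called (-0.53, SE 0.126, adjusted p = 0.0298), as for 3.21% of all genes in the positive and 4.08% in the negative direction. This call is close to the threshold. It was lost when any of 6 libraries was left out (adjusted p up to 0.0745) and, without the 3 libraries of high GC slope together, the difference was -0.62 (adjusted p = 0.00669).

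HLA-C, a classical heavy chain and a major ligand of natural killer cell receptors, varied within groups. At 20% O2 its levels were 54.6, 39.9 and 34.9 CPM with Doxy and 49.2, 50.9 and 49.8 CPM without. The first Doxy library, which is among those of high GC slope, lay above all Doxy-free libraries, and the groups overlapped. At 3% O2 the values were 35.5, 37.4 and 44.2 CPM with Doxy and 46.5, 60.2 and 55.1 CPM without, with no overlap.

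HLA-C did not pass the test at 20% O2 (log2 fold change 0.21, SE 0.151, adjusted p = 0.311) or at 3% O2 (0.47, SE 0.152, adjusted p = 0.0902). Without the 3 libraries of high GC slope it was called higher in both, by 0.42 at 20% O2 (adjusted p = 0.00346) and by 0.43 at 3% O2 (adjusted p = 0.0152). With a correction for GC content in all 12 libraries the values were 0.39 (adjusted p = 0.000355) and 0.39 (adjusted p = 0.00223).

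HLA-E, a non-classical chain that shows leader peptides of other class I proteins to the receptor NKG2A, had the highest level per kilobase of exon of the 4 heavy chains. Its levels at 20% O2 were 99.4, 87.0 and 82.7 CPM with Doxy and 108, 111 and 109 CPM without. At 3% O2 they were 79.0, 79.8 and 97.9 CPM with Doxy and 99.5, 113 and 104 CPM without. The Doxy-free groups lay above the Doxy groups at both oxygen levels, at 3% O2 by a narrow margin.

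The rise of HLA-E at 20% O2 was small (0.28 on the log2 scale, SE 0.0928, adjusted p = 0.034) and at 3% O2 the value of 0.30 did not pass (SE 0.093, adjusted p = 0.0771). Leaving out any of 5 of the 6 libraries at 20% O2 ended the call (adjusted p 0.0614 to 0.111). Without the 3 libraries of high GC slope, however, HLA-E was called higher at 20% O2 (0.36, adjusted p = 0.000149) and at 3% O2 (0.30, adjusted p = 0.0041).

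HLA-F, a non-classical chain found on activated immune cells, was barely detected. Counts at 20% O2 were 3, 0 and 0 with Doxy and 8, 4 and 10 without. At 3% O2 there were 2, 0 and 3 counts with Doxy and 1, 4 and 3 counts without. Per scaled read, the summed counts at 20% O2 (22 against 3) gave a ratio of 7.28 with an exact 95% interval of 2.19 to 38.0, and those at 3% O2 (8 against 5) a ratio of 1.71 (0.494 to 6.66). These intervals cover counting error only, and 28.5% of the HLA-F exonic bases face a gene on the other strand.

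The 4 heavy chains were also summed within each library, with no other class I gene in the sum. The sum was 144 CPM ± 20.0 (SD, n = 3) with Doxy and 183 ± 3.16 without at 20% O2, and 136 ± 16.2 and 176 ± 14.5 at 3% O2. The groups with and without Doxy did not overlap at either oxygen level, and the log2 ratio of the means was 0.35 at 20% and 0.37 at 3% O2. HLA-B made up 7.41% to 8.27% of the sum at 20% O2 + Doxy, 12.3% to 13.5% at 20% O2 wo Doxy, 7.88% to 8.45% at 3% O2 + Doxy and 8.95% to 9.71% at 3% O2 wo Doxy. Thus the share of HLA-B within these 4 genes was higher without Doxy in every library at both oxygen levels. Reads that moved to or from other class I genes would not be seen in this sum.

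B2M, the invariant light chain without which heavy chains do not reach the cell surface, had the highest level per kilobase of exon of all members. Its levels at 20% O2 were 258, 289 and 299 CPM with Doxy and 390, 407 and 387 CPM without. At 3% O2 they were 283, 281 and 241 CPM with Doxy and 313, 317 and 348 CPM without. All Doxy-free libraries lay above all libraries with Doxy, and at 20% O2 wo Doxy above every other library.

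B2M rose by 0.49 on the log2 scale at 20% O2 (SE 0.0762, adjusted p = 0.000583), or 1.40-fold. At 3% O2 it rose by 0.28 (SE 0.0762, adjusted p = 0.048), or 1.22-fold, a call at the edge of the threshold. That second call was lost without any of the 6 libraries compared (adjusted p 0.0622 to 0.129), and without the 3 libraries of high GC slope the value was 0.18 (adjusted p = 0.0627). The difference between the responses was not called (-0.20, SE 0.108, adjusted p = 0.286).

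**Figure D2:**
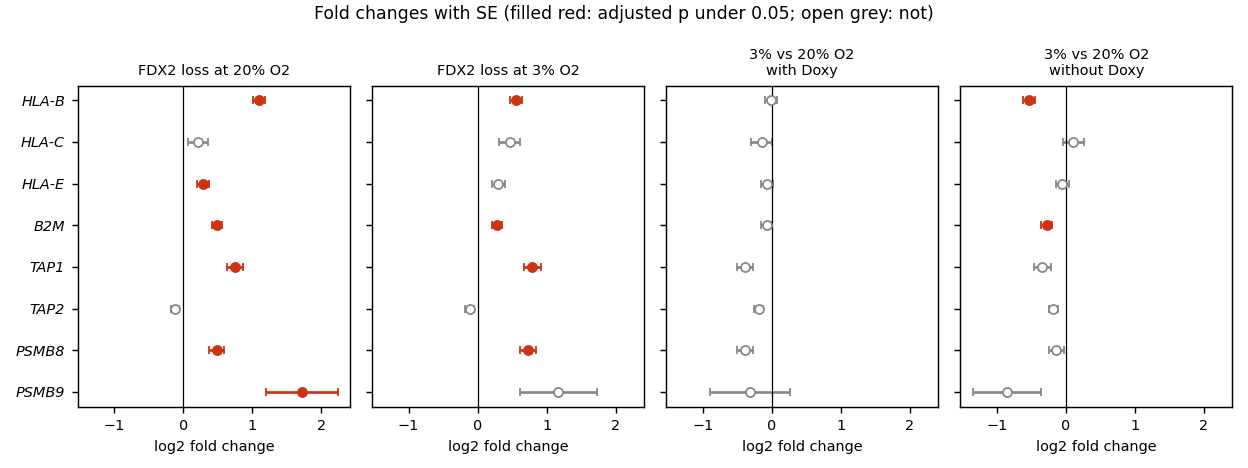
Log2 fold changes (horizontal axes) of the 8 tested members in 4 comparisons, with SE bars and filled red points for adjusted p under 0.05. With FDX2 loss the members lie right of 0 except TAP2, and for 3% against 20% O2 without Doxy HLA-B and B2M are called lower.

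The transporter subunits had fold changes of opposite sign. TAP1, which is interferon-inducible and shares a promoter region with PSMB9, was at 10.01, 7.83 and 9.17 CPM at 20% O2 with Doxy and at 15.5, 15.2 and 14.5 CPM without. The 3% O2 libraries had 5.99, 6.42 and 8.21 CPM with Doxy and 11.6, 12.5 and 11.8 CPM without. All 6 Doxy-free libraries lay above all 6 libraries with Doxy.

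TAP1 rose by 0.74 (log2, SE 0.118, adjusted p = 0.000644) at 20% O2 and by 0.79 (SE 0.121, adjusted p = 0.00327) at 3% O2, which is 1.67-fold and 1.73-fold. The difference of these responses was 0.05 (SE 0.168, adjusted p = 0.884). Of the TAP1 exonic bases, 9.49% face PSMB8-AS1.

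TAP2, the partner subunit, was at 28.2, 30.5 and 28.3 CPM with Doxy and at 26.4, 27.1 and 26.3 CPM without at 20% O2. At 3% O2 it was at 25.3, 27.3 and 23.7 CPM with Doxy and at 22.3, 23.8 and 24.3 CPM without. It was the single tested member with a negative log2 fold change on FDX2 loss, and neither value passed the test (-0.12, SE 0.0628, adjusted p = 0.152 at 20% O2, and -0.11, SE 0.0635, adjusted p = 0.312 at 3% O2). The 20% O2 groups did not overlap, which was so for 25.8% of all tested genes in that direction. Per kilobase of exon, the level of TAP2 was 4.54 ± 0.201 CPM (SD, n = 3) and that of TAP1 1.87 ± 0.229 at 20% O2 + Doxy, and 4.16 ± 0.0668 and 3.14 ± 0.110 at 20% O2 wo Doxy.

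PSMB8 and PSMB9 replace constitutive catalytic subunits of the proteasome after interferon exposure and shift its cuts toward peptides that class I molecules bind well. PSMB8 was at 13.5, 12.8 and 12.9 CPM at 20% O2 with Doxy and at 18.2, 18.4 and 18.2 CPM without. At 3% O2 it was at 8.84, 11.9 and 9.31 CPM with Doxy and at 18.7, 14.8 and 16.4 CPM without. All Doxy-free libraries lay above all libraries with Doxy.

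PSMB8 rose by 0.48 (log2, SE 0.109, adjusted p = 0.00569) at 20% O2 and by 0.73 (SE 0.112, adjusted p = 0.00327) at 3% O2. The difference between these responses was not called (0.25, SE 0.156, adjusted p = 0.366). Some 20.6% of the PSMB8 exonic bases face PSMB8-AS1 or PSMB9 on the other strand.

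PSMB9 had few reads, with 7, 7 and 9 counts at 20% O2 with Doxy and 23, 28 and 26 without. The 3% O2 counts were 2, 11 and 4 counts with Doxy and 13, 16 and 7 without. The 20% O2 groups were far apart and the 3% O2 groups overlapped. None of the 20% O2 + Doxy libraries reached the minimum of the filter on low counts, and PSMB9 passed through the 3 libraries at 20% O2 wo Doxy and 3 at 3% O2. Without PSMB9, 5 of 7 tested members were called higher at 20% O2. PSMB9 rose by 1.72 (log2, SE 0.518, adjusted p = 0.0244) at 20% O2, a call that was lost without any of 5 of the 6 libraries compared (adjusted p 0.0563 to 0.0734, with values of 1.62 to 1.77) and without the 3 libraries of high GC slope (1.65, adjusted p = 0.0551). At 3% O2 its value of 1.17 did not pass (SE 0.559, adjusted p = 0.237), and 3% O2 + Doxy replicate 2 moved it most: without that library it was 2.17 (adjusted p = 0.0486).

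Set against its constitutive counterpart in the same library, PSMB8 had 6.84%, 7.07% and 7.38% of the counts of PSMB5 at 20% O2 with Doxy and 11.7%, 11.6% and 12.6% without. At 3% O2 the shares were 5.04%, 6.73% and 5.32% with Doxy and 10.4%, 8.22% and 9.17% without. The groups did not overlap in either case. This ratio does not depend on scaling between libraries, and its mean log2 value differed by 0.75 at 20% and by 0.71 at 3% O2 (each exact permutation p = 0.1, two-sided, the smallest that 3 against 3 can give, and 0.2 when adjusted over 12 ratio tests).

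PSMB9 had 0.168%, 0.206% and 0.224% of the counts of PSMB6 at 20% O2 with Doxy and 0.704%, 0.837% and 0.853% without. At 3% O2 the shares were 0.0539%, 0.347% and 0.106% with Doxy and 0.462%, 0.532% and 0.2% without. The mean log2 ratio differed by 2.01 at 20% (exact permutation p = 0.1) and by 1.54 at 3% O2 (exact permutation p = 0.2). Part of these shifts lies in the denominators, since PSMB5 and PSMB6 fell at 20% O2 by 0.27 each on the log2 scale (adjusted p = 0.00272 and 0.00331), while at 3% O2 neither was called (0.03 and -0.09).

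PSMB10, the remaining inducible catalytic subunit, had 3.07%, 1.55% and 1.66% of the counts of PSMB7 at 20% O2 with Doxy and 2.21%, 3.02% and 2.24% without, with overlap. At 3% O2 the shares were 1.94%, 1.94% and 2.69% with Doxy and 1.71%, 4.34% and 2.76% without. In 3 of the 4 groups the highest value belonged to the library of high GC slope. PSMB10 itself was not called at 20% O2 (0.32, SE 0.296, adjusted p = 0.442) or 3% O2 (0.51, SE 0.297, adjusted p = 0.333), and 34.8% of its exonic bases are shared with AC040162.1.

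**Figure D3:**
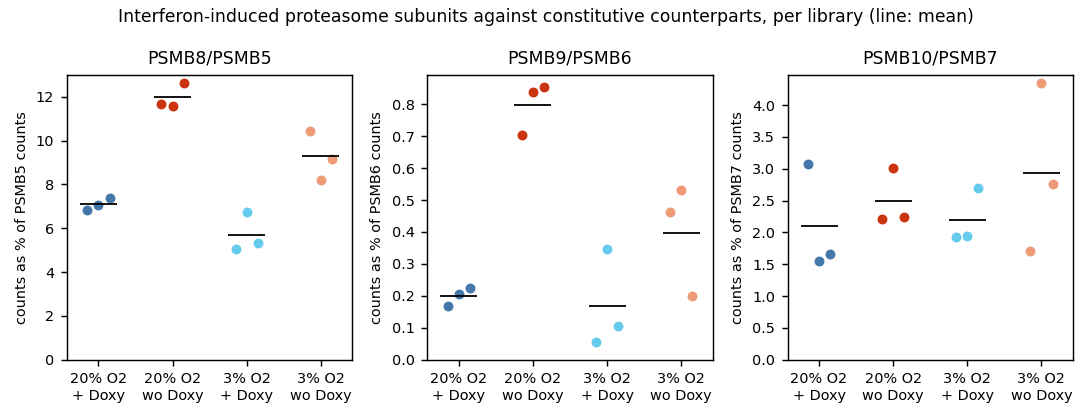
Counts of each inducible catalytic subunit as a percent of the counts of its constitutive counterpart (vertical axes from 0) in the 4 conditions, with a point per library and a line at the mean of 3. The PSMB8 to PSMB5 shares are 11.6% to 12.6% at 20% O2 wo Doxy and 6.84% to 7.38% at 20% O2 + Doxy, and the PSMB10 to PSMB7 shares overlap.

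Per kilobase of exon, the order of the members at 20% O2 + Doxy was B2M (46.4 CPM ± 3.54, SD, n = 3), HLA-E (30.2 ± 2.92), HLA-C (17.2 ± 4.09), TAP2 (4.54 ± 0.201), PSMB8 (4.36 ± 0.115), HLA-B (3.64 ± 0.357), TAP1 (1.87 ± 0.229), PSMB9 (0.0805 ± 0.00687) and HLA-F (0.00736 ± 0.0128). The levels of TAP2 and PSMB8 differed by less than the sum of their SDs. At 20% O2 wo Doxy the levels were 65.0 ± 1.79 for B2M, 36.7 ± 0.439 for HLA-E, 19.9 ± 0.339 for HLA-C, 7.75 ± 0.449 for HLA-B, 6.09 ± 0.0418 for PSMB8, 4.16 ± 0.0668 for TAP2, 3.14 ± 0.110 for TAP1, 0.268 ± 0.0247 for PSMB9 and 0.0544 ± 0.0232 for HLA-F. HLA-B thus moved ahead of PSMB8 and TAP2. The heavy chains and B2M differ in how well reads can be assigned to them, so this order holds for counted reads.

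Groups with and without Doxy did not overlap for 6 of 8 tested members in the upward and 1 in the downward direction at 20% O2, where 26.5% and 25.8% of all tested genes did so. At 3% O2 the counts were 6 upward and 0 downward, against 13.4% and 11.2% of all genes. The 6 at 20% O2 were HLA-B, HLA-E, B2M, TAP1, PSMB8 and PSMB9, and at 3% O2 HLA-C took the place of PSMB9.

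The 3% and 20% O2 groups, which also differ in culture time, were compared within cells that kept FDX2 and within those that lost it. With Doxy, edgeR called none of the 8 members between 3% and 20% O2, where 1.63% of all genes were called higher and 0.385% lower. At an unadjusted p under 0.05 there were 3, all with negative values: TAP1 (-0.39, SE 0.121, adjusted p = 0.158), PSMB8 (-0.39, SE 0.112, adjusted p = 0.123) and TAP2 (-0.19, SE 0.063, adjusted p = 0.192). That unadjusted threshold was passed by 2193 of all 16891 tested genes, counting both directions. PSMB8 was called by DESeq2's Wald test (-0.40, adjusted p = 0.0499) and without 3% O2 + Doxy replicate 2 (-0.53, adjusted p = 0.0265). TAP1 was called in 3 of 16 alternative fits (lowest adjusted p = 0.0266), among them that without the 3 libraries of high GC slope (-0.45, adjusted p = 0.0476). Its value lay between -0.54 and -0.30 in all 16.

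Groups did not overlap for 2 members, PSMB8 and TAP2, in the downward and for none in the upward direction, against 6.61% and 8.83% of all genes. HLA-B, HLA-E and B2M had log2 fold changes of -0.01, -0.07 and -0.07 with SEs of 0.0905, 0.093 and 0.0762.

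Without Doxy, HLA-B and B2M were lower at 3% than at 20% O2. HLA-B fell by 0.54 on the log2 scale (SE 0.0878, adjusted p = 0.00152) and B2M fell by 0.28 (SE 0.0761, adjusted p = 0.0219). The background was 13.9% of all genes called higher and 11.9% lower. TAP1 (-0.34, SE 0.117, adjusted p = 0.0549) and TAP2 (-0.18, SE 0.0633, adjusted p = 0.0587) missed the threshold, and HLA-C (0.11), HLA-E (-0.05) and PSMB8 (-0.14) were not called. The call of B2M was lost without any of 5 of the 6 libraries (adjusted p 0.0558 to 0.0877), which leaves HLA-B alone called.

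Deviations of same-numbered libraries correlated positively in this comparison (0.497, 0.190 and 0.318 for replicates 1, 2 and 3). Replicate 2 at 20% O2 wo Doxy correlated slightly better with replicate 3 at 3% O2 wo Doxy (0.211), so the numbers do not settle a pairing. With the replicate block fitted to the 6 libraries compared, 4 members were called lower, HLA-B (-0.55, adjusted p = 0.00461), B2M (-0.29, adjusted p = 0.0157), TAP1 (-0.35, adjusted p = 0.0188) and TAP2 (-0.19, adjusted p = 0.0394). Without the 3 libraries of high GC slope 5 were called lower, with HLA-E (-0.15, adjusted p = 0.0208) beside these 4. The shares of all genes called in these fits are not given here, so the counts are not read against a background. Groups did not overlap for 5 members downward and none upward, against 22% and 27.4% of all genes. The 5 were HLA-B, B2M, TAP1, TAP2 and PSMB9.

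The remaining genes of the pathway moved in both directions at 20% O2, where 17.6% of all genes were called higher and 17.7% lower. Of 11 other class I and class I-like chains, 7 were tested, and 2 rose and 2 fell. MR1, which presents vitamin B metabolites to mucosal-associated T cells, rose by 1.73 (SE 0.0763, adjusted p = 1.3e-07), from 6.77 CPM ± 0.0779 to 22.4 ± 0.788 (SD, n = 3). FCGRT, the heavy chain of the neonatal Fc receptor, rose by 0.72 (adjusted p = 0.0216). HFE, which acts in iron sensing and also pairs with B2M, fell by 0.58 (adjusted p = 0.000491), and MICA, a stress ligand of the receptor NKG2D, fell by 0.34 (adjusted p = 0.0255). At 3% O2, MR1 (0.47, adjusted p = 0.00474) and FCGRT (0.85, adjusted p = 0.0326) rose and none fell, against 4.2% and 3.11% of all tested genes.

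Among 10 genes of peptide loading and trimming, all tested, 2 rose and 3 fell at 20% O2, against 17.6% and 17.7% of all tested genes. The aminopeptidases ERAP1 (0.48, adjusted p = 0.00167) and ERAP2 (0.52, adjusted p = 0.00746), which trim peptides in the endoplasmic reticulum, rose. The chaperones CALR (-0.21, adjusted p = 0.00727) and CANX (-0.25, adjusted p = 0.0146) and the cytosolic peptidase THOP1 (-0.65, adjusted p = 0.0126) fell. Tapasin (TAPBP), the bridge between TAP and the heavy chain, was not called at 20% O2 (0.29, SE 0.129, adjusted p = 0.109) or at 3% O2 (0.27, SE 0.129, adjusted p = 0.238). None of the 10 was called at 3% O2 by edgeR, where 3 had an unadjusted p under 0.05. That unadjusted threshold was passed there by 3901 of all 16891 tested genes.

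None of PSMB10, PSME1 and PSME2, the last 2 of which form an interferon-induced proteasome activator, was called by edgeR on FDX2 loss at 20% or 3% O2, and none had an unadjusted p under 0.05. Of 5 constitutive counterparts, PSMB5, PSMB6 and PSME4 (-0.33, adjusted p = 0.00245) fell at 20% O2, where 17.7% of all tested genes did, and none was called at 3% O2.

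Of 13 regulators of class I transcription, 2 were called higher and 3 lower at 20% O2, about as many as the shares over all genes (17.6% and 17.7%) would give. NLRC5, the class I transactivator, rose by 0.66 (SE 0.148, adjusted p = 0.00513) at 20% O2 and by 0.68 (SE 0.149, adjusted p = 0.0201) at 3% O2. Its levels were 5.14 CPM ± 0.697 and 8.16 ± 0.951 at 20% O2 with and without Doxy, and 4.87 ± 0.91 and 7.81 ± 0.534 at 3% O2. STAT2 (0.54, adjusted p = 0.000541), which carries interferon signals to the nucleus, rose at 20% O2, whereas NFYA (-0.33, adjusted p = 0.00248) and NFYC (-0.25, adjusted p = 0.0336), subunits of the CCAAT-binding factor, and the NF-kB subunit NFKB1 (-0.28, adjusted p = 0.00137) fell. At 3% O2 the other gene called was RFX5 (0.20, adjusted p = 0.0454), a subunit of the factor that binds class I and class II promoters.

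Of 10 interferon receptors, kinases and their inhibitors, SOCS1, an inhibitor of JAK kinases, fell at 20% O2 (-1.57, SE 0.32, adjusted p = 0.00303, from 1.57 to 0.524 CPM), and none was called at 3% O2 by edgeR (1 at an unadjusted p under 0.05). Of 10 class II genes, 7 were tested: the chaperone subunit HLA-DMA rose (0.75, adjusted p = 0.0154) and the transactivator CIITA fell (-0.45, adjusted p = 0.0231) at 20% O2, and edgeR called none at 3% O2, with none at an unadjusted p under 0.05. Over all tested genes, 17.6% were called higher and 17.7% lower at 20% O2, and 4.2% and 3.11% at 3% O2.

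Of the interferon-induced genes outside antigen presentation, 19 of 24 were tested, and 9 rose and 1 fell at 20% O2, with a median log2 fold change of 0.74. Over all tested genes, 17.6% were called higher and 17.7% lower there, with a median of 0.009. The ubiquitin-conjugating enzyme UBE2L6 (3.05, adjusted p = 0.000348), TRIM22 (2.80, adjusted p = 0.00606), IFIT3 (1.05, adjusted p = 3.5e-06), GBP2 (1.02, adjusted p = 0.00418), IFIT2 (1.02, adjusted p = 0.00186), the RNA sensor IFIH1 (0.91, adjusted p = 0.048), GBP1 (0.84, adjusted p = 0.000199), IFI35 (0.74, adjusted p = 0.00303) and IFI6 (0.71, adjusted p = 0.0219) rose, and IFI44 fell (-0.26, adjusted p = 0.0409). Several were scarce, with UBE2L6 at 0.107 CPM ± 0.0466 (2 to 5 counts) with Doxy and 0.919 ± 0.0427 (27 to 30 counts) without, and TRIM22 at 1 to 4 counts with Doxy and 15 to 18 without. UBE2L6 and IFI44L passed the filter on low counts only with the 20% O2 wo Doxy libraries, so their inclusion depended on that group. Of the other 17 genes 8 rose and 1 fell, with a median of 0.71. TRIM22 would have passed without that group, although no 20% O2 + Doxy library reached the minimum. At 3% O2, 3 rose and none fell: IFIT3 (0.39, adjusted p = 0.0148), GBP1 (0.65, adjusted p = 0.00751) and GBP2 (1.01, adjusted p = 0.0222), with a median of 0.36. The shares over all genes were 4.2% higher and 3.11% lower at 3% O2, with a median of 0.041.

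**Figure D4:**
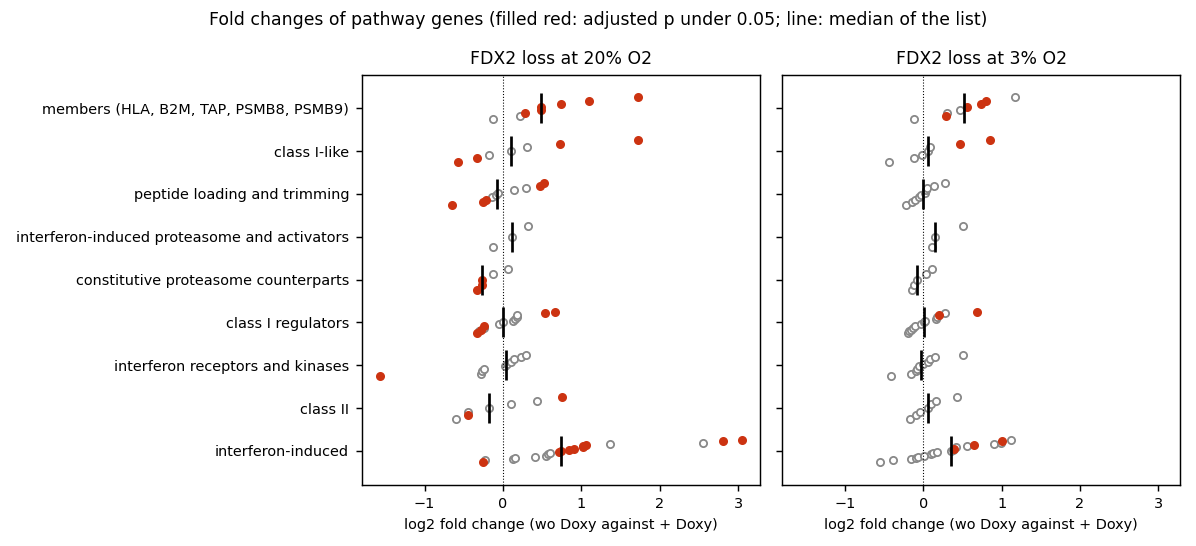
Log2 fold changes on FDX2 loss at 20% O2 (left) and 3% O2 (right) for the tested members and the genes of 8 lists, with filled red points for adjusted p under 0.05 and a line at each median. The medians of the members (0.48 and 0.51) and of the interferon-induced genes (0.74 and 0.36) lie right of 0. The other lists spread to both sides, except the 3 interferon-induced proteasome genes at 3% O2, which lie between 0.11 and 0.51.

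Between 3% and 20% O2 without Doxy, 13.9% of all tested genes were called higher and 11.9% lower. Beside these shares, the lists gave 2 higher and 1 lower of 7 class I-like chains, 3 and 0 of 10 loading genes, 0 of 3 inducible proteasome genes, 1 and 0 of 5 constitutive ones, 2 and 0 of 13 regulators, 1 and 1 of 10 receptors and kinases, 1 and 0 of 7 class II genes, and 0 and 4 of 19 interferon-induced genes. With Doxy, none of the genes in these lists was called by edgeR between the oxygen levels, with 3 class I-like, 4 loading, 1 inducible proteasome, 1 constitutive, 0 regulator, 1 receptor, 1 class II and 4 interferon-induced genes at an unadjusted p under 0.05. That unadjusted threshold was passed by 2193 of all 16891 tested genes. The comparisons at 20% and 3% O2 and those between oxygen levels share libraries, so their values stand side by side and are not independent of each other.

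Markers of the line itself also moved at 20% O2, with KRT18 (-0.55, adjusted p = 0.00425) and VIM (-0.49, adjusted p = 0.00223) lower on FDX2 loss. The endothelial gene CDH5 was detected in every condition (24.7 to 45.1 CPM as group means) and rose on FDX2 loss at 3% O2 (0.49, adjusted p = 0.0305). Between 3% and 20% O2 without Doxy, where HLA-B and B2M were lower, all 4 tested markers chosen for the carcinoma line were called higher, KRT8 (0.82, adjusted p = 0.00637), KRT18 (0.42, adjusted p = 0.0246), PAX8 (0.79, adjusted p = 0.00637) and VIM (0.54, adjusted p = 0.00242), as were the leukocyte marker LYZ (0.86, adjusted p = 0.0123) and CDH5 (0.77, adjusted p = 0.00114). Over all tested genes, 13.9% were called higher there. With Doxy, where edgeR called no member, PAX8 was also higher at 3% O2 (0.86, adjusted p = 0.0194). KRT8, KRT18, VIM, LYZ and CDH5 were not called with Doxy. The part of these markers in the changes of the members was not tested.

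Across the 12 libraries, which the 4 conditions divide into groups, the mean of the members' standardized log2 levels correlated best with TAP1 (r = 0.96), HLA-B (0.95) and PSMB8 (0.91) and least with TAP2 (-0.04). Pairs of members other than TAP2 had r between 0.39 (HLA-C and B2M) and 0.93 (HLA-B and TAP1). Of 10600 other genes with at least 5 CPM, the 5 most like that mean were SAMD4A (r = 0.976), CIDECP1 (0.975), SAT2 (0.975), TTC28 (0.969) and VPS13B (0.968). Their log2 fold changes on FDX2 loss were 0.31, 0.88, 0.37, 0.95 and 0.48 at 20% O2 and 0.19, 0.55, 0.34, 0.64 and 0.40 at 3% O2. The positive sign follows from the choice by correlation and is no separate result. The correlation coefficients describe shared condition means and carry no test.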

How the data were processed

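For each of 12 cultures, cDNA was primed on poly(A) RNA by random hexamers and read from both ends (DNBSEQ-T7). The authors aligned reads with STAR, counted them with featureCounts on GRCh38 (the submitters' notes also name DESeq2) and deposited raw counts per gene and library. Versions of STAR and featureCounts, the annotation, strand setting and treatment of multiple alignments are not given in the sources used here. All 58735 identifiers belong to GENCODE 29, and 58207 matched a current symbol.

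All fits used edgeR 4.0.16 under R 4.3.3. Genes passing filterByExpr (minimum count 10, minimum total 15; 16891 of 32966 with a count) were scaled by TMM and fitted with 4 condition means and 8 residual degrees of freedom. Totals of 24958386 to 34313637 (median 29621780) limit precision for PSMB9 and HLA-F, and the steps were tested on simulated data. Alternatives were DESeq2 1.42.0 (size factors and Wald test), no filter, 10 counts in every library, a replicate block, fits to 6 libraries, a GC correction (lowess offsets, span 0.3), a 2-fold minimum, an adjusted p under 0.01 and leaving out each library. Leaving out 3 libraries of high GC slope together was chosen after seeing the data. Deviations of same-numbered libraries correlated at 0.19 to 0.497 between 20% and 3% O2 without Doxy, while in each other pair of conditions at least 1 of the 3 was below 0.1. The members and lists (class I-like, loading and trimming, inducible and constitutive proteasome, regulators, receptors and kinases, class II, interferon-induced, and cell type markers) were chosen with earlier results of these data known. From the lists, genes called on FDX2 loss are named, and NLRC5, TAPBP and PSMB10 in any case. The 5 genes most like the members were chosen by correlation over log2(CPM + 0.5). Some genes of the lists are not reported here and are left out of the counts.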

Additional observations from a re-analysis of the deposited data

Results flagged for a closer look

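Among the members, the response to FDX2 loss differed between oxygen levels for HLA-B by the test of the difference itself, with -0.53 on the log2 scale (adjusted p = 0.0298, edgeR's quasi-likelihood test): 1.09 at 20% O2 and 0.56 at 3% O2. Among the named pathway genes the same test passed for MR1 (-1.26, adjusted p = 0.000201) and IFIT3 (-0.67, adjusted p = 0.00602). Both rose less at 3% O2 (0.47 and 0.39) than at 20% O2 (1.73 and 1.05). The test also passed for HFE (0.46, adjusted p = 0.0485) and PSMB5 (0.30, adjusted p = 0.0405). Both fell at 20% O2 (-0.58 and -0.27) and were not called at 3% O2 (-0.12 and 0.03).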

How the results depend on the processing

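PSMB9 (2 to 28 counts per library) and HLA-F (0 to 10) limit what depth can show. Of all refits of single members, 545 kept direction and side of the threshold, 47 lost a call, 36 gained one and 28 changed sign. Changes of sign were in values that were not called with all libraries and genes as reported, and 2 of them passed the threshold with the opposite sign, the difference of the responses for HLA-E with the GC correction and HLA-C without Doxy with the replicate block and GC correction (adjusted p = 0.034). For 3% against 20% O2 with Doxy, leaving out a library gave -0.084 to 0.053 for HLA-B (0.0028 without the 3 libraries of high GC slope), -0.28 to 0.039 for HLA-C and -1.31 to 0.12 for PSMB9. Without Doxy, HLA-C was at -0.15 with the GC correction, -0.16 with the replicate block and GC correction and -0.019 without the 3 libraries. For the difference of the responses, leaving out a library gave -0.055 to 0.12 for HLA-E, -0.041 to 0.20 for TAP1, -0.038 to 0.063 for TAP2 and -0.98 to 0.46 for PSMB9. With 10 counts in every library, the GC correction and the 3 libraries left out, HLA-E was at -0.00796, -0.33 (adjusted p = 0.0367) and -0.059, and TAP2 at -0.014, -0.062 and -0.075. The cause was not tested.

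Members called at 20% O2 were 6, with 4 to 6 when a library was left out and 2 with a 2-fold minimum. At 3% O2 there were 4, with 3 to 4 when a library was left out, 2 in a fit to the 6 libraries alone and 0 with a 2-fold minimum. Between 3% and 20% O2 with Doxy there were 0, with 0 to 1 when a library was left out and 1 with the GC correction, DESeq2's Wald test or without the 3 libraries. Without Doxy there were 2, with 1 to 2 when a library was left out, 4 with DESeq2's size factors or Wald test, 10 counts in every library, the GC correction or the 6 libraries alone, 5 without the 3 libraries, 0 with a 2-fold minimum and 1 at 0.01. For the difference of the responses there was 1, with 0 to 1 when a library was left out, 0 without a filter, with a 2-fold minimum or at 0.01, and 2 with the GC correction. Counts over all genes are given below for some of these fits only, so these member counts are not read against a background.

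With the replicate block fitted to the 6 libraries compared, members called were 0 at 3% O2 (1 gene in all) and 4 between oxygen levels without Doxy, and with block and GC correction 2 and 5. With the block in all 12 libraries the difference of the responses had 0. Between 20% and 3% O2 without Doxy same-numbered libraries correlated positively, although replicate 2 at 20% O2 correlated best with replicate 3 at 3% O2. In the other pairs of conditions the libraries share a number only. Same-numbered libraries there correlated at -0.568 to 0.648, and not every library correlated best with its own number. Genes called with the block in all 12 libraries were 676 at 3% O2, 218 between oxygen levels with Doxy and 615 for the difference of the responses, and with the block in 6 libraries 12 with Doxy. With block and GC correction they were 267 at 3% O2 and 97 with Doxy.

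Over all genes, 5961 were called at 20% O2 (4444 to 5536 with a library left out, 910 with a 2-fold minimum, 3645 at 0.01). At 3% O2, 1235 were called (608 to 1621; 678 without a filter, 2369 with the GC correction, 218 with 6 libraries, 1944 by DESeq2's Wald test with 839 higher and 1105 lower against 709 and 526, 118 with a 2-fold minimum, 404 at 0.01, 2674 without the 3 libraries with 1023 higher and 1651 lower). With Doxy, 341 were called between oxygen levels (191 to 427; 864 with the GC correction with 555 higher and 309 lower against 276 and 65, 128 with 6 libraries, 629 by DESeq2 with 412 higher and 217 lower, 92 with a 2-fold minimum, 181 at 0.01). Without Doxy, 4360 were called (2359 to 4232; 451 with a 2-fold minimum, 1975 at 0.01). For the difference, 1231 were called (521 to 2246; 672 without a filter, 2672 with the GC correction with 1694 higher and 978 lower against 542 and 689, 1916 by DESeq2, 186 with a 2-fold minimum, 382 at 0.01, 2249 without the 3 libraries).

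Leaving out a library moved the log2 PSMB8 to PSMB5 ratio between 0.71 and 0.78 at 20% O2 and between 0.62 and 0.84 at 3% O2. The difference between oxygen levels in the log2 PSMB10 to PSMB7 ratio ranged from -0.062 to 0.43 with Doxy and from -0.18 to 0.49 without Doxy.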
